A study of Mus musculus with 48 samples.

Results

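Capture of methylated DNA was examined at the 10 serotonin receptor genes Htr1a, Htr1b, Htr1d, Htr2a, Htr2c, Htr3a, Htr4, Htr5a, Htr6 and Htr7 in the mouse amygdala. A locus, which is a peak region with 1 row of read counts, was given to a receptor when it overlapped the RefSeq gene body on the GRCm38 assembly or the 5 kb on either side of it. This gave 37 of the 187695 loci, in 8 of the 10 genes, whereas Htr1a and Htr1b held 0 loci.

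The libraries came from methyl-CpG-binding domain sequencing (MBD-seq), in which sheared DNA is captured by a protein that binds methylated CpG sites, so that a higher count stands for more captured methylated DNA. DNA was taken from male C57BL/6 mice of 4 months of age, and each of the 48 mice gave 1 library. The mice were Tph2+/+, Tph2+/- or Tph2-/-, that is wildtype, heterozygous or homozygous for a null allele of the gene of the neuronal serotonin-producing enzyme tryptophan hydroxylase, and all were born to heterozygous parents, from a line that had been backcrossed to C57BL/6N. Pups of each genotype were controls (C, no stress) or spent 3 h of each day away from the dam between postnatal days 2 and 15 (maternal separation, MS), with 8 mice in each of the 6 groups. Per the study's methods, MS or C was assigned by litter and not by pup. The labels do not give the litter of a mouse, so the tests below treat littermates as independent mice. The null allele was present in every cell from conception, and bulk amygdala mixes neurons and glia, so that a change of methylation and a change of cell composition cannot be told apart. The amygdalae of both hemispheres of a mouse were pooled, after the mice had gone through behavioural tests. DNA counts hold no expression marker with which to check the tissue.

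Serotonin acts through a large receptor family. The Htr1 and Htr5a products couple to inhibitory Gi proteins and lower cyclic AMP, the Htr2 products couple to Gq and activate phospholipase C, the Htr4, Htr6 and Htr7 products couple to Gs and raise cyclic AMP, and Htr3a encodes a subunit of a cation channel that serotonin opens directly. Htr1a and Htr1b encode the autoreceptors with which serotonin neurons limit their own firing and release, and both also act on target neurons, while Htr2c damps dopamine release and food intake. In the amygdala these receptors act on fear and anxiety circuits. Methylation of CpG sites at a gene's start is commonly linked to silencing, whereas methylation within gene bodies is widespread also in active genes.

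Reference sequence is shown for the stretches on which the results turn, on the strand of the gene and with each CpG site, the target of capture, in capitals. The first 4 are from the loci that differed with MS at the limits of the study, namely the Htr1d intron (chr4:136426638-136426937, + strand), the region before Htr2a (chr14:74639579-74639878, + strand), the Htr7 intron (chr19:35983841-35984140, - strand) and an Htr7 coding exon (chr19:35969573-35969872, - strand). Each is the window of 300 bases with the most CpG sites in its locus, and for an exon in its coding part. The fifth is from the receptor locus with the highest CpG density, in a coding exon of Htr5a (chr5:27842879-27843178, + strand). The last 2 are the 250 bases before the start of the genes without a locus, Htr1a (chr13:105443443-105443692, + strand) and Htr1b (chr9:81633833-81634082, - strand). All are RefSeq sequence of GRCm38.
Htr1d intron: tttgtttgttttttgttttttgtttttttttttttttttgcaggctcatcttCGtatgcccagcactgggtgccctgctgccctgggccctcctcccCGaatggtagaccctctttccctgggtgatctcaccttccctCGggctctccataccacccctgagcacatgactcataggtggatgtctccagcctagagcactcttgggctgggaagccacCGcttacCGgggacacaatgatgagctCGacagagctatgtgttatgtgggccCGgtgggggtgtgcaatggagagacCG
Htr2a upstream region: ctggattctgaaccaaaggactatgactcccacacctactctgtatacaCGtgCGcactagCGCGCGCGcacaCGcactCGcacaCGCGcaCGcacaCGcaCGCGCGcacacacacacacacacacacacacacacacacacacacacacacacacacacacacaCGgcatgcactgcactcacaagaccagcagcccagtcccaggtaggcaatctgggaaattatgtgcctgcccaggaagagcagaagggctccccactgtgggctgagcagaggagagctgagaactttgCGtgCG
Htr7 intron: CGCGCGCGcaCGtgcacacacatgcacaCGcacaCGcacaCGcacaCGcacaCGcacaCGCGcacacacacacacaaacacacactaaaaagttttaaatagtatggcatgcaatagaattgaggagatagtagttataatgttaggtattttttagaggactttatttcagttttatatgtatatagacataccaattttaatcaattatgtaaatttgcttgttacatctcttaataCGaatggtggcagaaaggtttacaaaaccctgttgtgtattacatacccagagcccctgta
Htr7 coding exon: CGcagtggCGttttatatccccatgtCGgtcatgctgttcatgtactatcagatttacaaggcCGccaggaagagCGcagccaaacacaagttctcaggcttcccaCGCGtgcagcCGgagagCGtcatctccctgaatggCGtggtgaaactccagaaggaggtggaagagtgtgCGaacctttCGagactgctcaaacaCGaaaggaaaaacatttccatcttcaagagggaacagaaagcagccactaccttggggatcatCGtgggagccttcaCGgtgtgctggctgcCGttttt
Htr5a coding exon: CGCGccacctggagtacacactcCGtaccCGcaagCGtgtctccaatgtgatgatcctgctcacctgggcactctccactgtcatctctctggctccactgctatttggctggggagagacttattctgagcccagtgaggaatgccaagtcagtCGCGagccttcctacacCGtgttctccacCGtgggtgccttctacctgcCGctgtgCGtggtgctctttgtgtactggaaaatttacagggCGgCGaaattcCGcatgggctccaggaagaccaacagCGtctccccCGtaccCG
Htr1a promoter: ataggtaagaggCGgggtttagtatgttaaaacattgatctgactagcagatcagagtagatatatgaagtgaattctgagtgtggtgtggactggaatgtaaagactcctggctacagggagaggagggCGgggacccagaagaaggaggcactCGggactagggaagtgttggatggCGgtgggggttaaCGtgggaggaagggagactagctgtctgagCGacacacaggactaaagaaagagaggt
Htr1b promoter: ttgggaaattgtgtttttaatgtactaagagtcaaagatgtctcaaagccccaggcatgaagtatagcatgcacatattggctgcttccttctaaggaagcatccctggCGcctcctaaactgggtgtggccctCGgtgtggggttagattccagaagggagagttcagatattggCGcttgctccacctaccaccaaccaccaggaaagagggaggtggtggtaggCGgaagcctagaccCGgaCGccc

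The windows of the Htr2a upstream region and of the Htr7 intron held 18 and 13 CpG sites, most of them inside runs of alternating CA and CG letters. The Htr7 exon window held 16 and the Htr5a exon window 17, spread over protein-coding sequence, and the Htr1d intron window held 8. The promoters of Htr1a and Htr1b held 6 CpG sites each, which was also the median over the 32851 promoters of the RefSeq table, of which 46.3% held more. Of the 10 receptor genes, 8 had a promoter in that table, and Htr3a and Htr4 had none. The nearest locus to Htr1a lay 11847 bp and that to Htr1b 13031 bp from the gene body. Of the 21887 protein-coding genes, 22.7% had 0 loci and the median gene had 2.

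Libraries held 7.72 to 14.1 Mcounts (1e6 counts), with a median of 10.9 Mcounts. The fits used 46 libraries, without Tph2-/- MS replicates 3 and 7, which had the lowest totals of their group (8.095 and 8.23 Mcounts). A receptor locus held a mean of 11.8 to 165.1 counts per library, and 27 of the 37 held 20 or more. The sample numbers in the labels (S1 to S48) do not mix the conditions, since controls are S1 to S17 and S42 to S48 and MS mice are S18 to S41. What these numbers stand for is not stated. Sample order and MS therefore cannot be told apart. At the receptor loci, MS differences that passed the limits are given with and without S18 to S26. So are those of the Htr1d and Htr6 sums with the smallest p. Those of the other receptor genes and of the signalling partners of the receptors are given only with that run included. The run S18 to S26 was set apart by its values at several loci, and no label marks its end. Where its values are high, leaving it out lowers the fold change by construction, and fewer mice remain. Over the 37 receptor loci 18 were higher in S18 to S26 than in S27 to S41, beside 45.8% of all loci. Of the fitted libraries 17, 8, 14 and 7 fell in the runs S1 to S17, S18 to S26, S27 to S41 and S42 to S48. Levels are given in CPM, counts per 1e6 of the TMM-normalised library size (TMM is the trimmed mean of M values), and between loci or genes in CPM per kb of captured sequence. The 15 loci of Tph2 itself gave no check of genotype. They summed to between 38.3 ± 4.97 CPM (Tph2-/- MS, SD, n = 6) and 41.8 ± 4.175 CPM (Tph2+/- C, SD, n = 8), and 0 of them passed the limits in any comparison.

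Capture at the receptor genes was found in coding exons, introns and flanks, and at no gene start. The share of all genes without a locus at their start was not counted. Of the 37 loci, 10 overlapped a coding exon of the receptor, 1 an untranslated exon alone, 15 lay in introns and 11 in the flanks. Among all loci 18.2% overlapped a coding exon of any gene and 56.9% lay inside a gene. The receptor loci, in contrast, were chosen for lying in or near a gene. The nearest edge of any locus lay 653 bp from the annotated start, before Htr6, then 744 bp before Htr2a, 967 bp before Htr1d and 987 bp after the start of Htr5a. In Htr3a, Htr7, Htr4 and Htr2c the nearest edges were 3781, 30160, 103646 and 147358 bp away. Loci overlapped all 1125 coding bases of Htr1d, 70.9% of those of Htr2a, 67.7% of Htr5a, 62.0% of Htr3a, 52.49% of Htr7, 33.6% of Htr6, 33.04% of Htr2c and 0% of Htr4. The share of a gene's CpG sites that lay in a locus, flanks included, was highest in Htr3a (43.04%) and Htr1d (36.7%) and lowest in Htr2c (3.72%) and Htr4 (1.805%).

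The strongest capture per kb was at coding exons, whose loci were also denser in CpG sites. Their median was 21.3 CpG sites per kb, against 15.4 in introns and 17.9 in the flanks. The part of density in the capture of exons was not tested. The Htr7 exon locus (chr19:35969120-35970488) held 4.10 ± 0.717 CPM per kb and the Htr1d exon locus (chr4:136441949-136445755) 4.08 ± 0.511 CPM per kb (SD, n = 46 libraries), above 89.11% and 88.95% of all loci. The highest loci of Htr6 (exon, chr4:139060932-139062074) and Htr2a (exon, chr14:74644590-74645798) held 3.69 ± 0.840 and 3.52 ± 0.611 CPM per kb. The coding exon loci had a median of 3.01 CPM per kb, against 2.775 CPM per kb in introns and 2.77 in the flanks, with ranges that overlapped, from 2.21 to 4.095, 2.12 to 3.46 and 1.86 to 3.00 CPM per kb. The median over all 187695 loci was 2.76 CPM per kb, and 22 of the 37 receptor loci were above it. In 6 of the 8 genes the highest locus overlapped a coding exon, the exceptions being Htr2c and Htr4. Htr5a had only coding exon loci and Htr4 only intron loci, so the outcome in these genes was fixed.

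**Figure D1:**
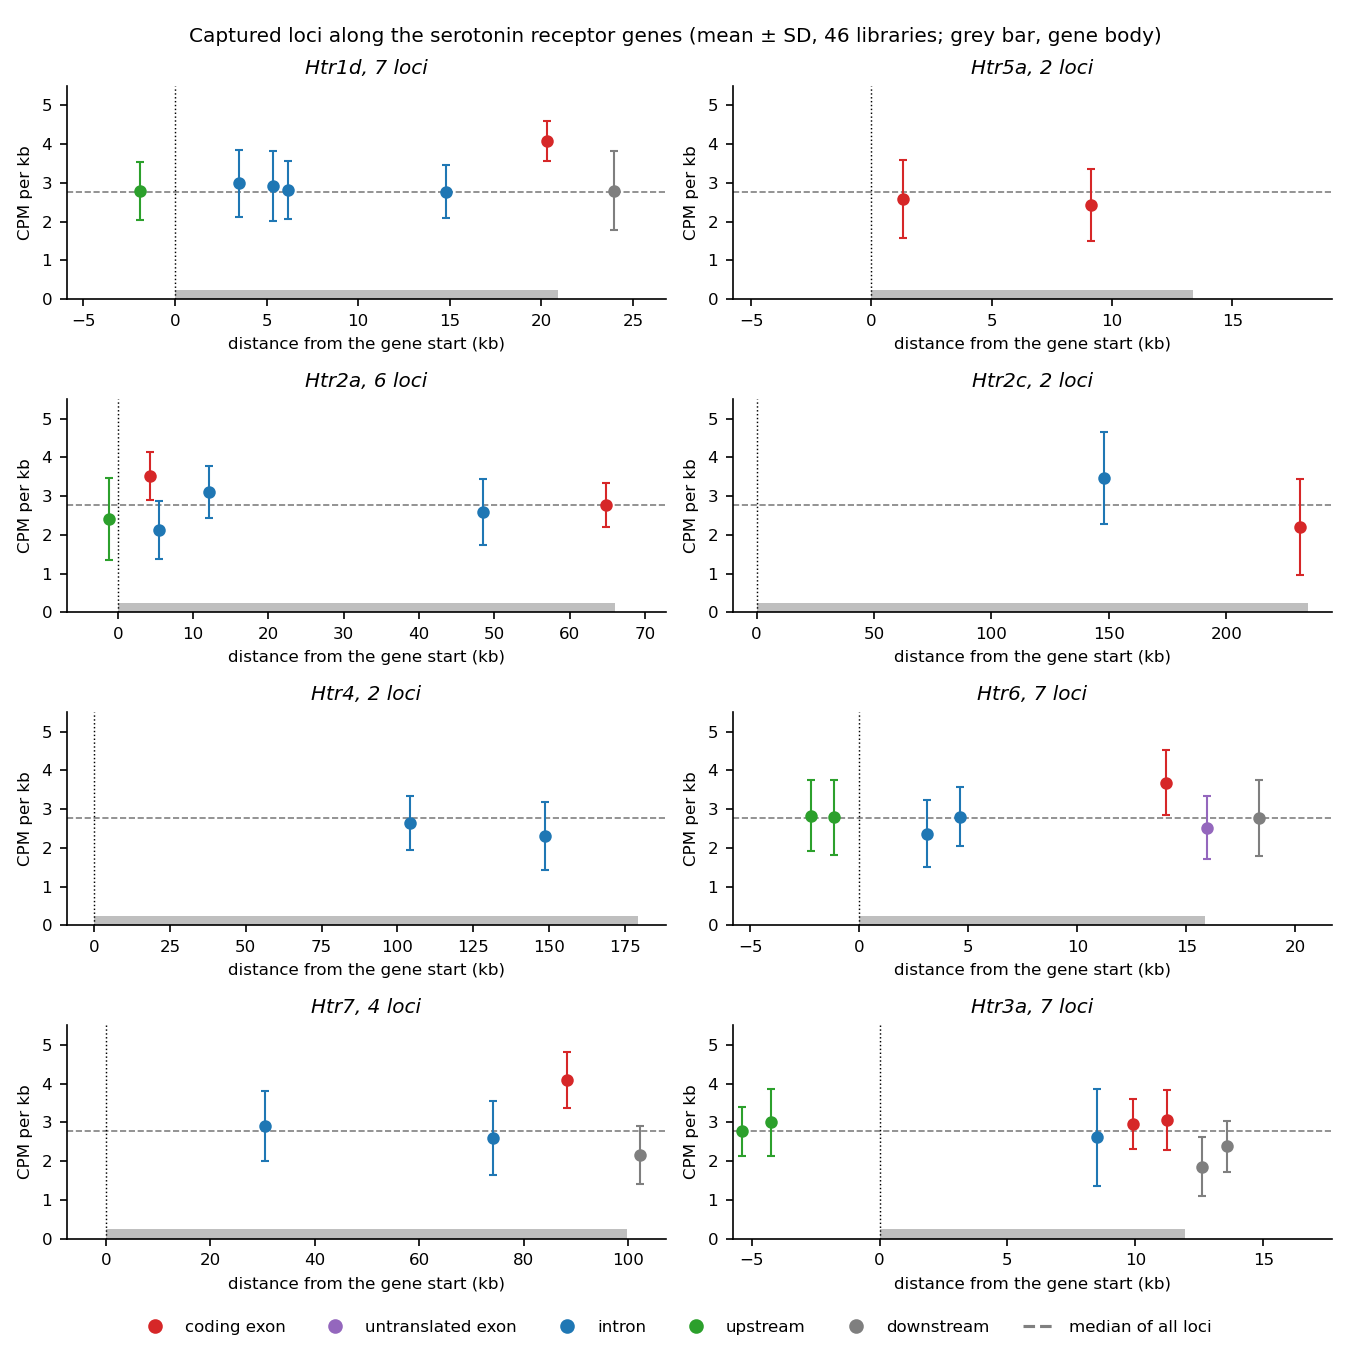
Mean CPM per kb of each receptor locus (points, error bars 1 SD over 46 libraries) against the distance of its middle from the gene start in kb, with the gene body as a grey bar and the median of all loci as a dashed line. The exon loci of Htr1d and Htr7 stand above 4 CPM per kb, and no locus sits on a gene start.

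Summed over its loci and divided by the captured length, Htr1d was the highest gene at 3.33 ± 0.312 CPM per kb and Htr4 the lowest at 2.48 ± 0.551 (SD, n = 46 libraries). Between them came Htr7 (3.11 ± 0.387), Htr2c (3.02 ± 0.802), Htr6 (2.87 ± 0.451), Htr2a (2.82 ± 0.278), Htr3a (2.69 ± 0.294) and Htr5a (2.51 ± 0.664). No neighbours in this order differed beyond their spread. Htr1d exceeded Htr7 in 31 of the 46 libraries, and for the other neighbours the higher gene was ahead in 24 to 31 of them.

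Capture followed CpG density only loosely among the receptor loci. Spearman's rho of CpG sites per kb and CPM per kb was 0.241 over the 37 receptor loci and 0.449 over all 187695 loci, which share libraries and base composition. The 2 receptor loci with the highest CpG density held little capture. The first coding exon locus of Htr5a (chr5:27842703-27843336) had 42.6 CpG sites per kb, a density above that of 99.5% of all loci, but held 2.59 ± 1.01 CPM per kb (SD, n = 46 libraries). Of the 317 loci of like density (bin centred on 43.75 CpG sites per kb) 90% held over 2.63 CPM per kb and the median was 9.70 CPM per kb. The coding exon locus of Htr2c (chrX:147193684-147194224) had 40.7 CpG sites per kb and 2.21 ± 1.23 CPM per kb, where 90% of the 485 loci of like density held over 2.59 and their median was 8.93 CPM per kb. Htr2c lies on the X chromosome, of which male mice carry a single copy. Loci of that chromosome had a median of 3.115 CPM per kb, against 2.76 on the autosomes. They also had more CpG sites, with medians of 26.6 against 17.97 per kb, and more repeat sequence, with medians of 86.65% against 22.4%. The part of the copy number in the level of the Htr2c exon was not tested.

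**Figure D2:**
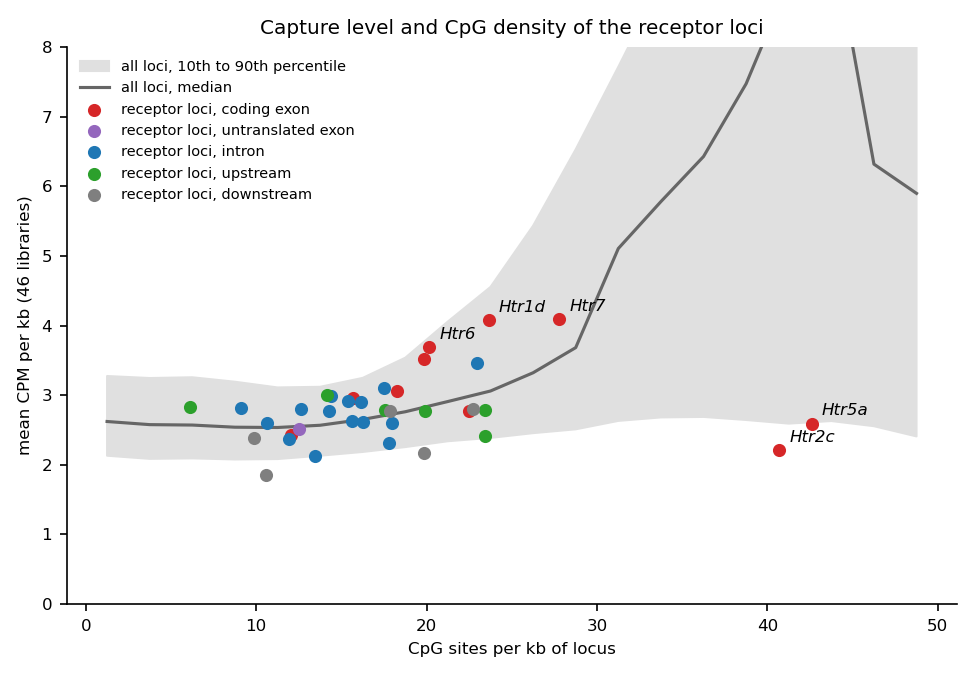
Mean CPM per kb of the receptor loci (points, coloured by position in the gene) against CpG sites per kb, over the median (line) and the central 80% (grey) of all loci, with the vertical axis ending at 8. The Htr5a and Htr2c exon loci lie at 42.6 and 40.7 CpG sites per kb, at or just below the lower edge of the grey range, and the Htr1d, Htr6 and Htr7 exon loci lie inside it above the median line.

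Spread between mice of a group was widest at the same Htr2c exon locus, with a within-group SD of 0.937 on the log2 scale against a median of 0.6345 for loci of like count. The steadiest receptor loci for their count were the Htr7 exon (SD 0.211 on the log2 scale, against a median of 0.3002) and the first Htr4 intron locus (SD 0.346, against 0.469). Of the 37 loci, 16 had a spread above the median of loci of like count.

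The limits of the study asked a differentially methylated locus to change by over 0.2 on the log2 scale at p under 0.01 before adjustment, and they were applied here to edgeR's quasi-likelihood tests over all loci. Summed counts per gene were tested in the same way over 35447 genes with a locus. No receptor locus had a Benjamini-Hochberg adjusted p under 0.05 in any of the 8 comparisons (edgeR), whereas 0.0266% of all loci had one in at least 1 comparison. Of the 296 pairs of receptor locus and comparison, 6 passed the limits of the study, at 4 loci. In the single comparisons 0.546% to 3.63% of all loci passed. The comparisons share mice, so the pairs are not independent.

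MS was compared with C over the 3 genotypes, as the mean of their 3 MS effects, so that 1 genotype can carry a call. At the limits of the study 3 of the 37 receptor loci were higher in MS mice and 0 were lower, beside 3.63% of all loci, of which 62.9% were higher. The 3 loci were in an Htr1d intron, in an Htr7 intron and before Htr2a, and their smallest adjusted p was 0.241 (edgeR). At an unadjusted p under 0.05 there were 11 of the 37 receptor loci, beside 12.2% of all loci, and the 11 were higher in MS except the Htr2c exon (log2 fold change -0.50 ± 0.22, SE). The fold change was positive at 26 of the 37 loci, with a median of 0.08 on the log2 scale against 0.0017 over all loci. At 12 loci (32.4%) the level was higher in MS within each of the 3 genotypes and at 4 (10.8%) it was lower in each, beside 19.2% and 16.4% of all loci. Of the 12, 4 belonged to Htr6 and 3 to Htr1d, and the 4 lower ones were in Htr1d, Htr2c, Htr4 and Htr7. Without S18 to S26 the count at the limits was 0 of 37, beside 1.26% of all loci, the count at an unadjusted p under 0.05 was 0, beside 5.75% of all loci, and 24 receptor loci had a positive fold change. Without replicate 2 of each group the count at the limits was 0 and without replicate 8 it was 6. The share of all loci in these 2 fits is not given, so the counts cannot be set against it. With library totals in place of TMM, 21 receptor loci had a positive fold change, 0 passed, and 27.4% of the calls over all loci were higher.

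The Htr1d locus lies in an intron 3075 bp after the start (chr4:136426597-136427430) and has 12 CpG sites in 834 bp. Htr1d encodes a Gi-coupled receptor that acts as an autoreceptor on serotonin terminals. In Tph2+/+ mice its level ran from 1.68 to 2.47 CPM in C, with a median of 1.87, and from 2.07 to 3.88 CPM in MS, with a median of 3.285. The groups overlapped, but 6 of the 8 MS mice were above every C mouse, and the log2 fold change of 0.61 ± 0.20 (SE) passed the limits (unadjusted p = 0.0029, adjusted p = 0.752, edgeR). A 2-sided exact permutation test of these groups gave p = 0.001243, at a locus already picked by its edgeR result in the same mice. In Tph2+/- mice the levels ran from 1.945 to 4.015 CPM in C and from 2.04 to 3.44 CPM in MS, with medians of 2.22 and 2.26. In Tph2-/- mice they ran from 1.39 to 2.96 CPM in C and from 1.64 to 4.61 CPM in MS, with medians of 2.12 and 2.605. The log2 fold changes were 0.03 and 0.34 in these genotypes and did not pass, and over the 3 genotypes it was 0.33 ± 0.12 (SE, unadjusted p = 0.0066, edgeR). The highest mean was that of S18 to S26, at 3.25 ± 0.838 CPM (SD, n = 8), against 2.525 ± 0.597 CPM in the later MS libraries S27 to S41 (SD, n = 14), 2.18 ± 0.600 CPM in S1 to S17 (SD, n = 17) and 2.32 ± 0.459 in S42 to S48 (SD, n = 7). Without S18 to S26 the fold changes were 0.14 over the genotypes (unadjusted p = 0.308) and 0.47 in Tph2+/+ mice (unadjusted p = 0.0414, edgeR), so neither call held. The part of this run in the result was not tested.

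A second Htr1d intron locus, 4986 bp after the start (chr4:136428508-136429222), had the smallest p of the receptor loci for MS in Tph2+/- mice, with a log2 fold change of 0.50 ± 0.23 (SE, unadjusted p = 0.0329, edgeR), and did not pass. It ran from 1.13 to 2.19 CPM in C and from 1.02 to 2.94 CPM in MS, and the groups overlapped, with 5 of the 8 MS mice above every C mouse and 1 below. The Htr1d exon locus held 11.8 to 17.3 CPM in Tph2+/+ C and 15.3 to 19.7 in Tph2+/+ MS, with a log2 fold change of 0.23 ± 0.11 (SE, unadjusted p = 0.04895, edgeR). The Htr1d locus before the gene did not pass either, with log2 fold changes of 0.27, 0.27 and 0.06 in Tph2+/+, Tph2+/- and Tph2-/- mice.

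The Htr7 intron locus (chr19:35983619-35984563) lies 73570 bp after the start, has 17 CpG sites in 945 bp and is 57.6% repeat-masked. Htr7 encodes a Gs-coupled receptor. In Tph2+/+ mice its level ran from 1.06 to 2.46 CPM in C, with a median of 1.91, and from 2.05 to 4.525 CPM in MS, with a median of 2.97. Again 6 of the 8 MS mice were above every C mouse, and the log2 fold change was 0.76 ± 0.22 (SE, unadjusted p = 0.00088, adjusted p = 0.7495, edgeR, and exact permutation p = 0.00326, 2-sided). In Tph2+/- mice the medians were 2.56 CPM in C and 2.38 CPM in MS, and in Tph2-/- mice 1.91 and 2.18 CPM, with log2 fold changes of -0.05 and 0.35 that did not pass. The MS libraries of S18 to S26 had a mean of 3.49 ± 1.08 CPM (SD, n = 8) against 2.37 ± 0.485 in S27 to S41 (SD, n = 14). In Tph2+/+ MS mice this was 4.01 to 4.525 CPM in the 3 mice of the first run and 2.05 to 3.38 CPM in the 5 of the second. Without S18 to S26 the fold change was 0.43 in Tph2+/+ mice (unadjusted p = 0.0823) and 0.11 over the genotypes (unadjusted p = 0.468, edgeR), and neither call held. The part of this run in the result was not tested.

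The third locus over the genotypes lies 744 bp before Htr2a (chr14:74639192-74640130), the gene of the Gq-coupled receptor through which classical hallucinogens act, and it overlaps the predicted gene Gm41210. In Tph2+/+ mice it held 0.824 to 2.66 CPM in C and 1.964 to 4.705 CPM in MS, with medians of 2.27 and 2.33. In Tph2+/- mice it held 0.5257 to 2.59 CPM in C and 1.403 to 2.59 CPM in MS, and in Tph2-/- mice 1.33 to 3.56 CPM in C and 1.104 to 6.36 CPM in MS. The log2 fold changes were 0.48, 0.30 and 0.36, and over the genotypes 0.38 ± 0.14 (SE, unadjusted p = 0.0096, edgeR), although the groups overlapped in each genotype. The spread was wide here, with an SD above that of 91.7% of loci of like count. The MS libraries of S18 to S26 had a mean of 3.44 ± 1.55 CPM (SD, n = 8), and those of S27 to S41 a mean of 2.085 ± 0.482 CPM (SD, n = 14), near the 1.98 ± 0.6785 CPM of S1 to S17 (SD, n = 17). Without S18 to S26 the fold change was 0.05 (unadjusted p = 0.737, edgeR).

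**Figure D3:**
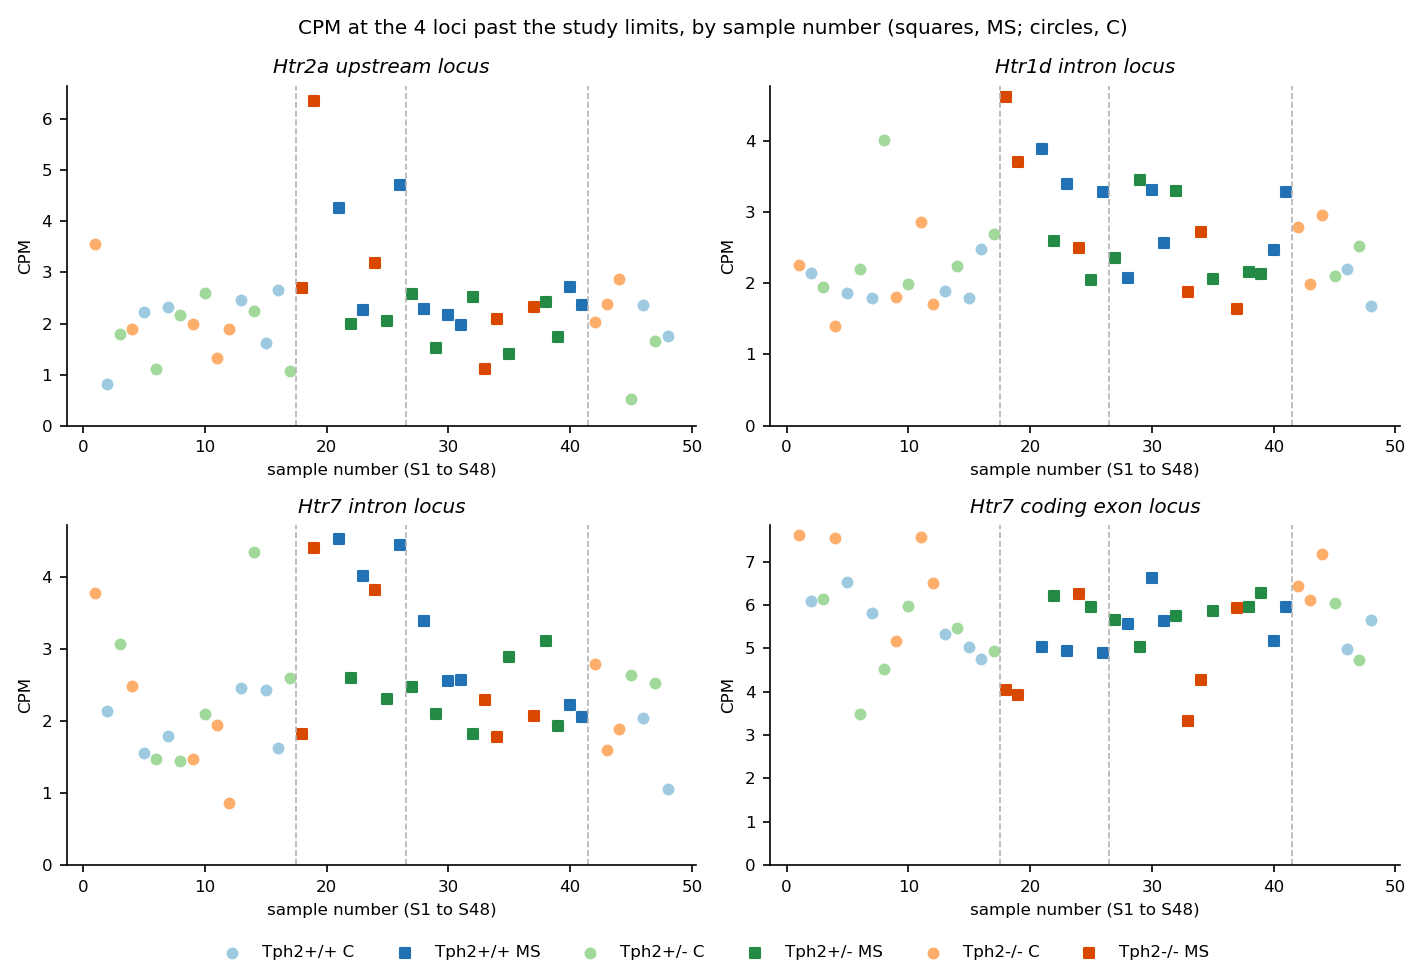
CPM in each library at the 4 receptor loci that passed the limits of the study, against the sample number, with C mice as circles, MS mice as squares, genotypes by colour and dashed lines between the runs. At the Htr1d intron, the Htr7 intron and the Htr2a upstream locus the highest MS values lie in S18 to S26, while at the Htr7 exon the 4 Tph2-/- MS mice below every Tph2-/- C mouse lie in both MS runs.

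Within the genotypes the effect of MS was counted separately. In Tph2+/+ mice 2 of the 37 receptor loci passed, both higher in MS, beside 1.31% of all loci. These were the introns of Htr7 and Htr1d already described. In Tph2+/- mice 0 passed, beside 0.779% of all loci, with 1 receptor locus at an unadjusted p under 0.05 (edgeR), beside 4.36% of all loci. In Tph2-/- mice 1 passed and was lower in MS, beside 1.48% of all loci. Without replicate 8 of each group 4 passed in Tph2-/- mice, and the share of all loci in that fit is not given. The median fold change of the receptor loci was 0.05, 0.11 and 0.09 on the log2 scale in Tph2+/+, Tph2+/- and Tph2-/- mice, and that of all loci 0.0059, 0.0023 and 0.013. The fold change was positive at 27 of the 37 loci in Tph2-/- mice, and at 18 without S18 to S26.

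The locus lower in Tph2-/- MS mice was the Htr7 coding exon, in which 760 of the 1369 bp code for the receptor. Its level ran from 5.17 to 7.62 CPM in Tph2-/- C, with a median of 6.84, and from 3.31 to 6.24 CPM in Tph2-/- MS, with a median of 4.15. The groups overlapped, and 4 of the 6 MS mice were below every C mouse. The log2 fold change was -0.54 ± 0.15 (SE, unadjusted p = 0.000416, adjusted p = 0.631, edgeR, and exact permutation p = 0.00466, 2-sided). In Tph2+/+ mice the levels were alike, from 4.76 to 6.53 CPM in C and from 4.88 to 6.62 CPM in MS, with a log2 fold change of -0.01 and a 95% interval from -0.28 to 0.26. In Tph2+/- mice they were 3.48 to 6.13 CPM in C and 5.04 to 6.27 CPM in MS, with a log2 fold change of 0.18. The Tph2-/- C group was the highest of the 6, with a mean of 6.77 ± 0.869 CPM (SD, n = 8) against 5.16 ± 0.9215 to 5.84 ± 0.387 CPM in the groups of the other 2 genotypes. Tph2-/- MS mice averaged 4.74 ± 1.31 CPM in S18 to S26 and 4.51 ± 1.33 CPM in S27 to S41 (SD, n = 3 each), and Tph2-/- C mice 6.89 ± 1.06 CPM in S1 to S17 (SD, n = 5) and 6.58 ± 0.541 CPM in S42 to S48 (SD, n = 3). In Tph2+/+ MS mice the runs did not overlap, at 4.88 to 5.04 CPM in S18 to S26 (n = 3) and 5.17 to 6.62 CPM in S27 to S41 (n = 5). The call in Tph2-/- mice held without S18 to S26 and in every other alternative tried, with log2 fold changes from -0.63 to -0.46.

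**Figure D4:**
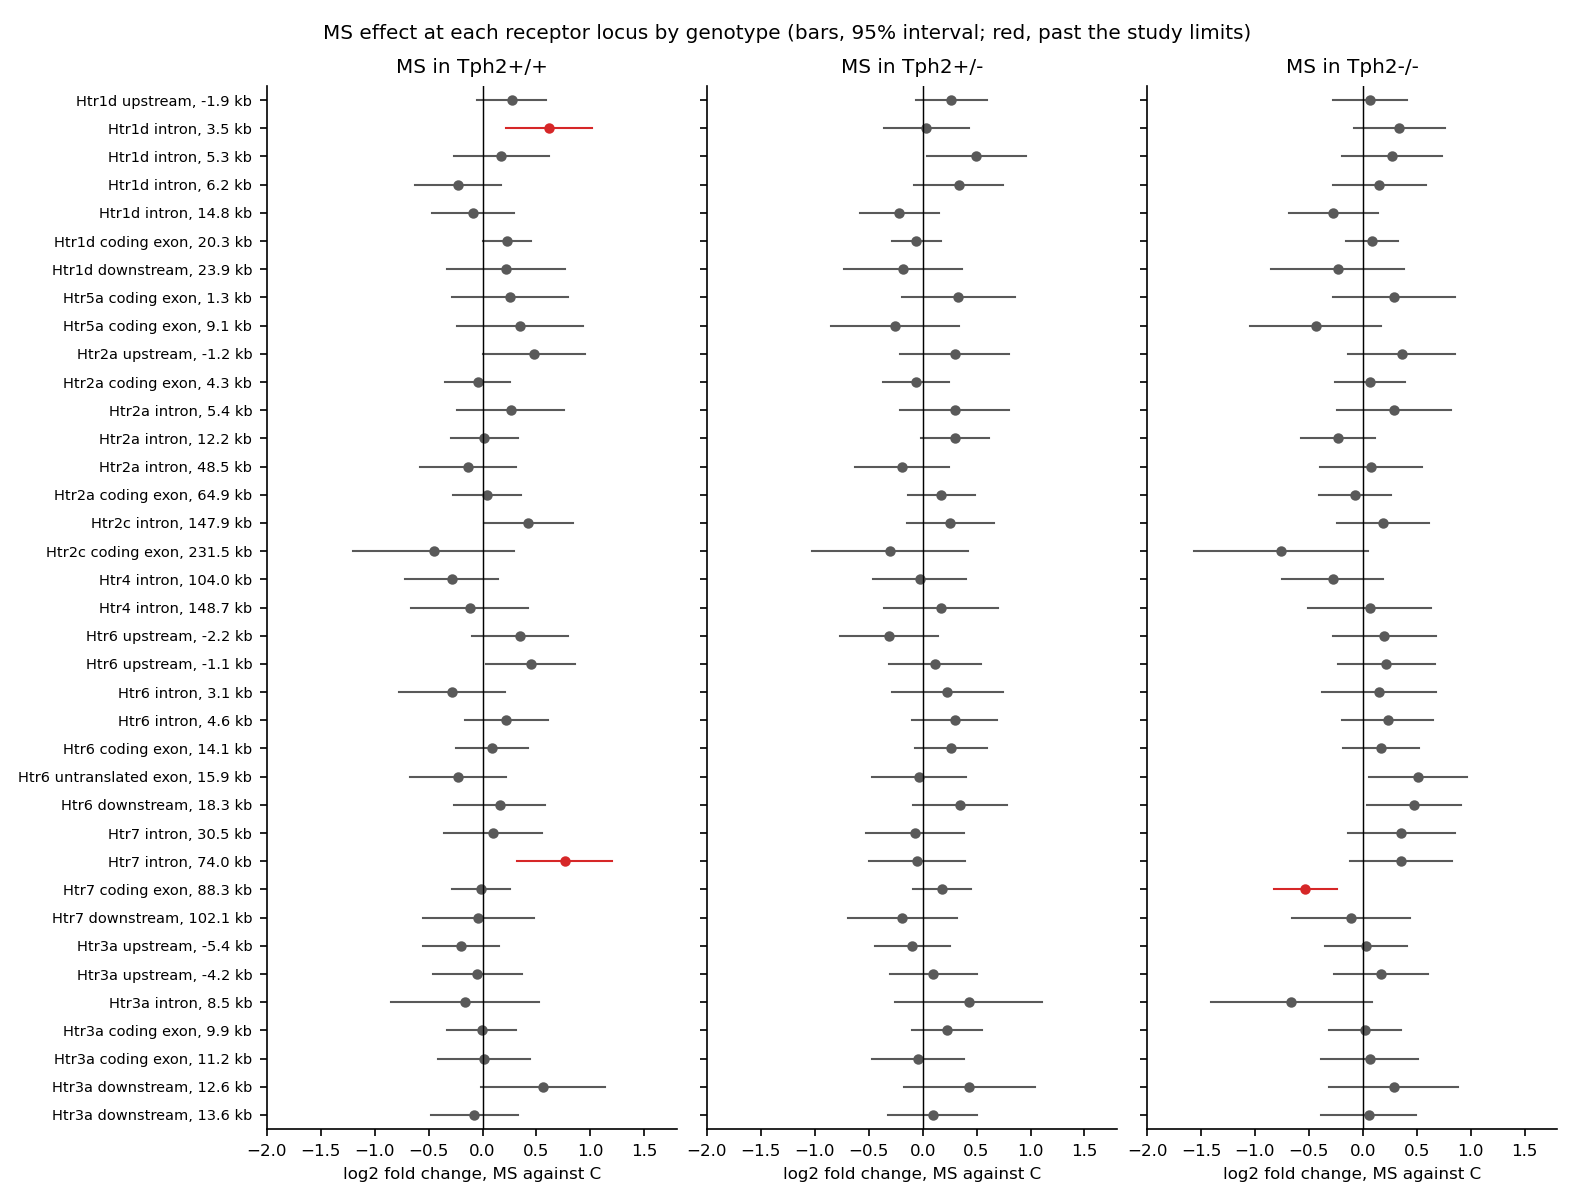
Log2 fold change of MS against C at each of the 37 receptor loci in the 3 genotypes (points, bars 95% intervals of the edgeR fit), with loci named by position in the gene and distance of the middle from the start in kb. Red marks the 3 calls within a genotype, the Htr1d and Htr7 introns in Tph2+/+ mice (0.61 and 0.76) and the Htr7 exon in Tph2-/- mice (-0.54).

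The other loci of Htr7 did not pass. The locus 30160 bp after the start had log2 fold changes of 0.10, -0.07 and 0.36 in Tph2+/+, Tph2+/- and Tph2-/- mice, and the locus after the gene -0.04, -0.19 and -0.11. Htr6 loci had positive fold changes at several positions without passing. In Tph2-/- mice the untranslated exon locus ran from 1.21 to 2.87 CPM in C and from 1.87 to 4.86 CPM in MS (log2 fold change 0.51 ± 0.23, SE, unadjusted p = 0.0281), and the locus after the gene, which overlaps Tmco4, ran from 1.20 to 4.22 CPM in C and from 2.58 to 6.25 CPM in MS (0.48 ± 0.22, SE, unadjusted p = 0.0319, edgeR). The Htr2c exon, with its low counts, had negative fold changes in all 3 genotypes, -0.45, -0.30 and -0.76, with wide intervals, and the repeat-rich Htr2c intron locus positive ones, 0.43, 0.26 and 0.19.

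The interactions ask whether the effect of MS depends on genotype. GE1 subtracts the MS effect of Tph2+/+ mice from that of Tph2+/- mice, GE2 subtracts it from that of Tph2-/- mice, and both share the Tph2+/+ groups. At GE1 0 of the 37 receptor loci passed, beside 0.626% of all loci, with 3 at p under 0.05 before adjustment (edgeR), beside 3.71%. The Htr7 intron locus came first, with a log2 difference of -0.82 ± 0.32 (SE, unadjusted p = 0.0112), in which the MS effect was -0.05 in Tph2+/- and 0.76 in Tph2+/+ mice. At GE2 0 of the 37 passed, beside 0.558% of all loci, with 2 at p under 0.05 before adjustment, beside 3.36%. There the Htr7 exon came first, with a log2 difference of -0.52 ± 0.20 (SE, unadjusted p = 0.0103, edgeR). Both passed the limits under some of the alternatives and not under others. The GE1 difference at the Htr7 intron ran from -0.94 without replicate 7 of each group (unadjusted p = 0.0068) to -0.50 without S18 to S26 (unadjusted p = 0.145, edgeR), and the GE2 difference at the Htr7 exon from -0.66 without S18 to S26 (unadjusted p = 0.0079) to -0.38 without replicate 5 of each group (unadjusted p = 0.0792, edgeR).

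Genotypes were compared over C and MS. For Tph2-/- against Tph2+/+ mice 0 of the 37 receptor loci passed, beside 0.748% of all loci, and 0 had an unadjusted p under 0.05 (edgeR), beside 4.08%. The smallest p belonged to the locus after Htr6 (chr4:139056763-139057713), with a log2 fold change of 0.26 (unadjusted p = 0.08895). For Tph2+/- against Tph2+/+ mice 0 passed, beside 0.546% of all loci. The smallest p belonged to the Htr2a upstream locus, with a log2 fold change of -0.39 ± 0.17 (SE, unadjusted p = 0.0268, edgeR), and no other receptor locus had an unadjusted p under 0.05, beside 3.47% of all loci.

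Summed over its loci, no receptor gene passed the limits in any comparison, and none had an adjusted p under 0.05 (edgeR), beside 0.0423% of all genes in at least 1 comparison. The shares of all genes that passed were 2.75% for MS over the genotypes, 1.36%, 0.635% and 1.62% for MS in Tph2+/+, Tph2+/- and Tph2-/- mice, 0.516% for GE1, 0.454% for GE2, 0.536% for Tph2-/- and 0.355% for Tph2+/- against Tph2+/+ mice.

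Among the Gi-coupled receptors, the Htr1d sum ran from 28.1 to 31.9 CPM in Tph2+/+ C and from 31.7 to 39.4 CPM in Tph2+/+ MS, with medians of 30.45 and 33.98. Of the 8 MS mice 7 were above every C mouse, and the log2 fold change was 0.18 ± 0.061 (SE, unadjusted p = 0.0050, edgeR), below the limit on size. Without S18 to S26 it was 0.15 (unadjusted p = 0.0360), and with library totals in place of TMM 0.07 (unadjusted p = 0.308, edgeR). In Tph2+/- mice the Htr1d sum ran from 27.7 to 35.9 CPM in C and from 27.3 to 34.1 CPM in MS, and in Tph2-/- mice from 27.5 to 37.7 CPM in C and from 29.1 to 39.8 CPM in MS, with log2 fold changes of 0.02 and 0.04. The Htr1d sum also had the smallest p of the receptor genes at GE1 (-0.15, unadjusted p = 0.0827) and for Tph2+/- against Tph2+/+ mice (-0.06, unadjusted p = 0.141, edgeR). The Htr5a sum was low and variable, from 1.15 to 3.57 CPM in Tph2+/+ C and from 1.70 to 4.915 CPM in Tph2-/- C, and its MS fold changes were 0.28, 0.07 and -0.11 in the 3 genotypes. It had the smallest p for Tph2-/- against Tph2+/+ mice (0.21 ± 0.14, SE, unadjusted p = 0.142, edgeR).

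Among the Gq-coupled receptors, the Htr2a sum had group means from 19.04 to 20.7 CPM, and MS fold changes of 0.05, 0.11 and -0.01 on the log2 scale in Tph2+/+, Tph2+/- and Tph2-/- mice, with intervals over the 3 genotypes from -0.04 to 0.14. The Htr2c sum had group means from 4.05 to 4.96 CPM, with 1 mouse each of Tph2+/+ MS (8.27 CPM) and Tph2+/- MS (8.12 CPM) far above the others. Both were replicate 1, and both lay in the run S18 to S26 (S21 and S22). That run averaged 5.54 ± 2.04 CPM for Htr2c (SD, n = 8), against 4.41 ± 0.598 CPM in S27 to S41 (SD, n = 14).

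Among the Gs-coupled receptors, the Htr6 sum had the smallest p for MS over the genotypes, with a log2 fold change of 0.16 ± 0.053 (SE, unadjusted p = 0.0035, adjusted p = 0.163, edgeR), below the limit on size. It ran from 16.3 to 18.85 CPM in Tph2+/+ C and from 13.5 to 24.4 CPM in Tph2+/+ MS, from 11.9 to 19.1 and from 16.6 to 23.15 CPM in Tph2+/- mice, and from 15.3 to 20.99 and from 17.2 to 30.4 CPM in Tph2-/- mice. It also had the smallest p of the receptor genes for MS in Tph2-/- mice, with a log2 fold change of 0.24 ± 0.096 (SE, unadjusted p = 0.0166, edgeR), and the highest value there was that of Tph2-/- MS replicate 2. With replicates 2 and 3 left out of that group in place of 3 and 7 the fold change was 0.12 (unadjusted p = 0.179), and without S18 to S26 it was 0.17 (unadjusted p = 0.119, edgeR). For MS in Tph2+/- mice it was 0.13 (unadjusted p = 0.158). The libraries of S18 to S26 averaged 21.98 ± 3.98 CPM for Htr6 (SD, n = 8), those of S27 to S41 18.6 ± 2.37 (SD, n = 14), those of S1 to S17 16.99 ± 1.77 (SD, n = 17) and those of S42 to S48 18.45 ± 1.56 CPM (SD, n = 7), and without S18 to S26 the fold change over the genotypes was 0.10 (unadjusted p = 0.08005, edgeR). The Htr7 sum ran from 10.6 to 13.8 CPM in Tph2-/- C and from 9.501 to 13.7 CPM in Tph2-/- MS and from 8.47 to 12.4 and from 10.46 to 15.5 CPM in Tph2+/+ mice, with opposite signs of the MS effect, -0.18 and 0.15. Their difference, GE2, was -0.33 ± 0.14 (SE, unadjusted p = 0.0199, adjusted p = 0.9998, edgeR), beside 3.22% of all genes with a p under 0.05 before adjustment, and without S18 to S26 it was -0.30 (unadjusted p = 0.0726). The Htr4 sum, over 2 intron loci, had group means from 3.42 to 3.97 CPM and MS fold changes of -0.23, 0.05 and -0.15 in Tph2+/+, Tph2+/- and Tph2-/- mice, none of which passed.

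The sum of the channel subunit gene Htr3a had group means from 16.8 to 18.55 CPM, and its MS fold change over the genotypes was 0.02 with a 95% interval from -0.08 to 0.12. For the sparser sums of Htr4, Htr5a and Htr2c the 95% intervals of the same fold change were wider and ran from -0.32 to 0.09, from -0.15 to 0.31 and from -0.14 to 0.27. A predicted gene, Gm32335, overlaps 5 of the 7 Htr3a loci.

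**Figure D5:**
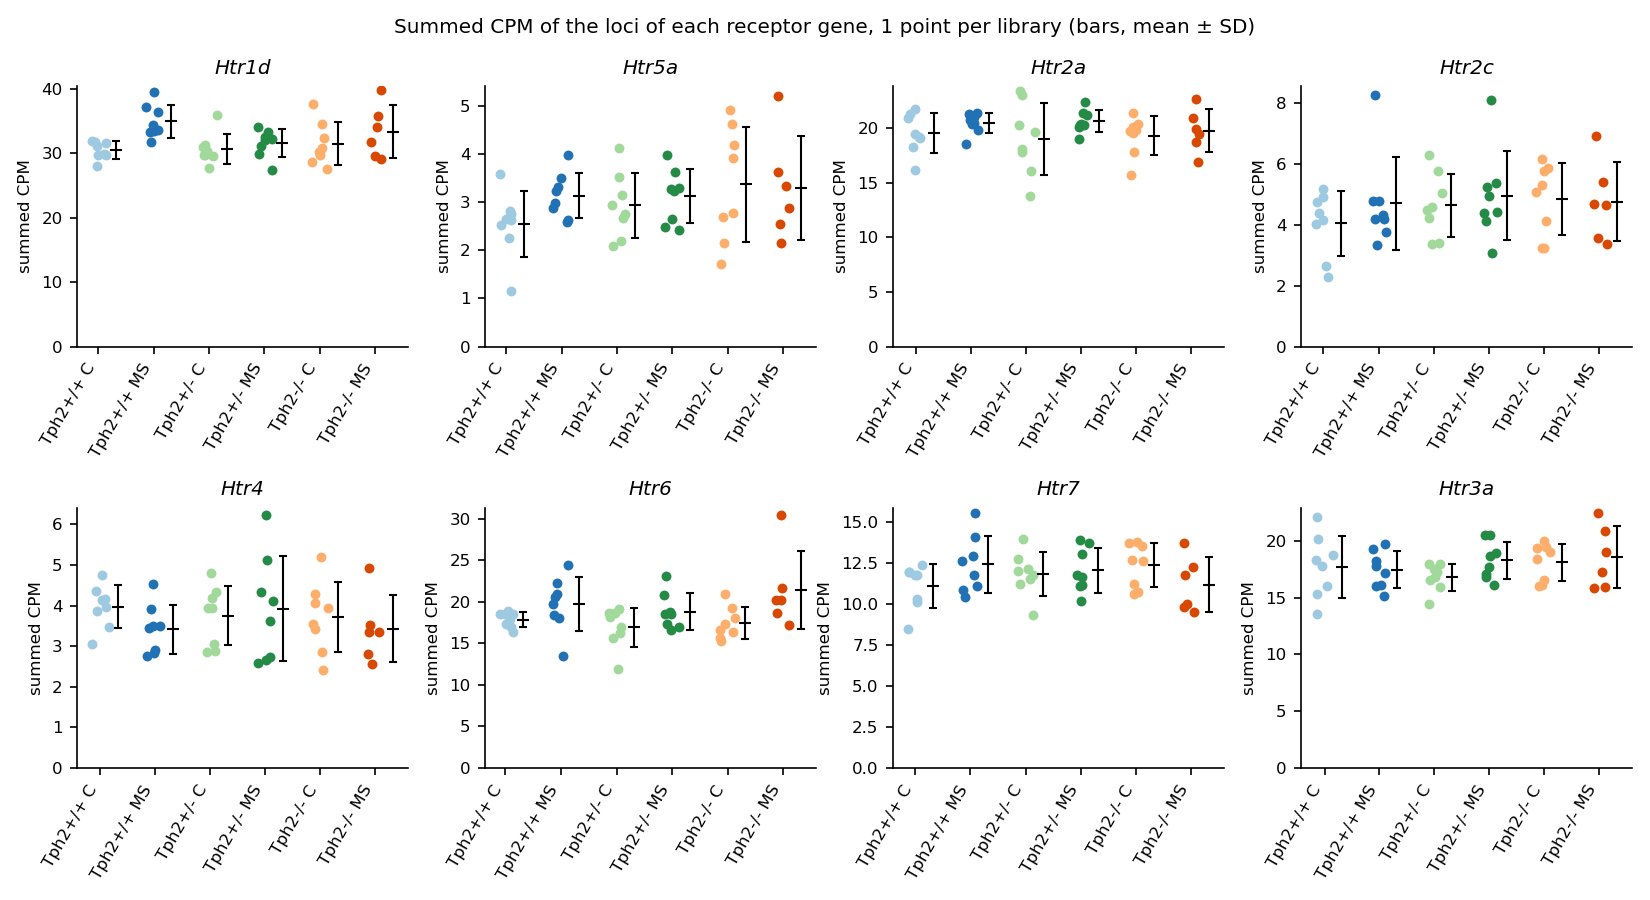
Summed CPM of the loci of each receptor gene in each library (points), by group, with the mean and SD of the group as bars and axes that start at 0. In the Htr1d panel 7 of 8 Tph2+/+ MS mice lie above the Tph2+/+ C mice.

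Since the sample numbers of controls lie both before and after those of the MS mice, the late controls (S42 to S48) were compared with the early ones (S1 to S17) in a fit that held group fixed. Of the 37 receptor loci 1 passed the limits, beside 1.74% of all loci. This was the Htr5a exon locus, lower in the late controls by a log2 fold change of -0.72 ± 0.25 (SE, unadjusted p = 0.0056, edgeR). The Htr5a sum averaged 3.18 ± 0.905 CPM in S1 to S17 (SD, n = 17) and 2.39 ± 0.706 CPM in S42 to S48 (SD, n = 7).

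The remaining receptor genes and the proteins through which the receptors signal were counted in the same way. The 4 other receptor genes, Htr1f, Htr2b, Htr3b and Htr5b, held 22 loci, and 1 of them passed for MS over the genotypes (4.55%, beside 3.63% of all loci). It was an Htr1f intron locus (chr16:65061362-65062864, named after its values were seen) with a log2 fold change of 0.45 ± 0.14 (SE, unadjusted p = 0.0026, edgeR), and in the 7 other comparisons 0 of the 22 passed. This locus is 96.5% repeat-masked, and its fold change without S18 to S26 is not given. The highest Htr1f sums were 162.4 CPM (S19) and 146.5 CPM (S21), both in that run, in which S25 held 78.9 CPM. The part of the run in the Htr1f result was not tested. The 28 coupling partners (G protein subunits, adenylyl cyclases, phospholipases, potassium channels, arrestins and receptor-associated proteins) held 235 loci. For MS over the genotypes 8 of these passed (3.40%), 2 higher and 6 lower. The smallest p values were those of an intron of Adcy3, an adenylyl cyclase gene (chr12:4172017-4173321), higher in MS by 0.30 ± 0.0875 (SE, unadjusted p = 0.00086), and of an intron of Adcy2 (chr13:68771452-68772209), lower by -0.53 ± 0.16 (SE, unadjusted p = 0.0011, edgeR).

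In the other comparisons of coupling partners 0 to 3 of the 235 loci passed. Lower in MS were an intron of Gnaq, the Gq subunit gene, in Tph2+/+ mice (log2 fold change -0.64), an intron of the phospholipase C gene Plcb4 in Tph2+/- mice (-0.65) and an intron of the adenylyl cyclase gene Adcy8 in Tph2-/- mice (-0.69). In Tph2-/- against Tph2+/+ mice coding exon loci of Adcy1 (0.44) and of the arrestin gene Arrb2 (0.27) were higher. In Tph2+/- against Tph2+/+ mice an intron of the potassium channel gene Kcnj6 was higher (0.38) and a coding exon of Adcy5 lower (-0.52), among 3 that passed. At GE1 an intron of Gnal passed (0.92), and at GE2 0 did. None of these loci had an adjusted p under 0.05 (edgeR). On summed counts, 2 of the 25 coupling partners with a locus passed in 1 comparison each, Adcy3 for MS in Tph2-/- mice (0.20, unadjusted p = 0.0069) and Adcy8 for Tph2+/- against Tph2+/+ mice (0.30, unadjusted p = 0.00265, edgeR).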

How the data were processed

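MBD-seq libraries of 48 mice were analysed from 1 table of read counts. Per the labels and the study's methods, the authors aligned reads with Bowtie2 2.1.0 to GRCm38, called peaks, merged them with DiffBind 2.0.9, and deposited whole read counts per locus, not normalised. Between 55.0% and 71.6% of nonzero counts in a library were even. Whether each of 2 mates was counted was not tested, so a count may not be an independent molecule. Depth limits the sparser loci most. The study's own fits left out 2 Tph2-/- MS libraries without naming them, and here the 2 with the lowest totals were left out.

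Counts were fitted over all loci with edgeR 4.0.16 in R 4.3.3 (quasi-likelihood test, TMM, robust, 1 term per group), and again after summing per gene. Benjamini-Hochberg adjustment ran over all loci or all genes. Alternatives used DESeq2 1.42.0, limma 3.58.1 and the settings listed at the end, and the fit was tested on simulated counts. Exact permutation tests, on log2 CPM with a pseudocount of 0.1, were added after the data were seen. They were run only for the calls within a genotype. Since those loci were picked by the edgeR result in the same mice, a small p was likely and is no separate support. CpG sites and gene models came from RefSeq GRCm38.

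Named receptor loci were, in each comparison, up to 5 past the limits of the study with the smallest p, or else the locus with the smallest p, and for each gene the locus with the highest CPM per kb and that nearest to the start. Receptor genes were named in the same way on summed counts. Named coupling partners were, in each comparison, the loci past the limits with the smallest p, at most 2. The members and lists were chosen with earlier results of these data known.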

Additional observations from a re-analysis of the deposited data

Results flagged for a closer look

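In groups of 4 to 10 mice, a library whose gap to its nearest neighbour exceeded Dixon's critical value was found in 8 of the 84 groups of receptor values tested. Chance flags about 1 in 20 independent groups of normal values. The groups here are not independent, since the sums contain loci that were also tested, so the count cannot be set against that rate. At the Htr1d intron locus beginning at 136426597, Tph2+/- C replicate 3 held 4.015 CPM, against 1.945 to 2.69 CPM in the rest of its group. At the Htr1d intron locus beginning at 136428508, Tph2+/- MS replicate 2 held 1.02 CPM, against 2.1 to 2.94 CPM. At the locus after Htr6, Tph2+/- MS replicate 3 held 4.82 CPM, against 1.98 to 3.11 CPM, and Tph2-/- MS replicate 2 held 6.25 CPM, against 2.58 to 3.65 CPM. The Htr6 sum was also far in Tph2-/- MS replicate 2, at 30.4 CPM against 17.2 to 21.7 CPM. The Htr1d sum was 35.9 CPM in Tph2+/- C replicate 8, against 27.7 to 31.3 CPM. The Htr2c sum was 8.27 CPM in Tph2+/+ MS replicate 1, against 3.33 to 4.80 CPM, and 8.12 CPM in Tph2+/- MS replicate 1, against 3.06 to 5.37 CPM.

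The interaction of MS and genotype in the edgeR fit had an unadjusted p under 0.05 at 3 of the 37 receptor loci at GE1 and 2 of the 37 at GE2, beside 3.71% and 3.36% of all loci, and for 1 of the 8 receptor gene sums at GE2, beside 3.22% of all genes. In none of these was the adjusted p below 0.05. Between Tph2+/- and Tph2+/+ mice (GE1) the log2 differences were -0.82 at the Htr7 intron (unadjusted p = 0.0112), -0.66 at the locus before Htr6 beginning at 139077395 (unadjusted p = 0.0405) and -0.58 at the Htr1d intron beginning at 136426597 (unadjusted p = 0.0444). Between Tph2-/- and Tph2+/+ mice (GE2) they were -0.52 at the Htr7 exon (unadjusted p = 0.0103), 0.74 at the untranslated Htr6 exon (unadjusted p = 0.0233) and -0.33 for the Htr7 sum (unadjusted p = 0.0199).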

How the results depend on the processing

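The lower level at the Htr7 exon in Tph2-/- MS mice passed the limits under all 22 alternatives, of which 1 was the exact permutation test in the same mice. The Htr7 intron in Tph2+/+ MS mice passed under 21 of 22, the exception being the fit without S18 to S26. Of the 3 loci that passed for MS over the genotypes, the Htr1d intron, Htr7 intron and Htr2a upstream locus passed under 11, 10 and 8 of 20 alternatives. The number of receptor loci past the limits for MS over the genotypes, 3 as reported, was 1 with limma voom, 5 with an offset on CpG density, and 0 with library totals, with a mean count of 20 or more, with Tph2-/- MS replicates 2 and 3 left out instead and without S18 to S26. It ranged from 0 to 6 when 1 replicate was left out. Among all loci 6816 passed for MS over the genotypes as reported, 5667 with the CpG offset and 6072 with library totals. Except for the fit without S18 to S26, the count among all loci under the other settings is not given. Receptor counts under those settings cannot be set against it. For MS in Tph2+/+ mice the number of receptor loci was 2 as reported, 1 with library totals, 0 without S18 to S26 and 1 to 3 with a replicate left out. For MS in Tph2-/- mice it was 1 as reported, 2 with late controls as a covariate and 1 to 4 with a replicate left out. At GE1 it was 0 as reported and 1 with replicates 2 and 3 left out instead, with only the groups compared and with the CpG offset, and 0 to 1 with a replicate left out. At GE2 it was 0 as reported and 1 with DESeq2, limma voom, a mean count of 20 or more, the CpG offset and without S18 to S26, and 0 to 1 with a replicate left out. For Tph2+/- against Tph2+/+ mice it was 0 to 1 with a replicate left out. Over all comparisons, 0 summed genes passed as reported, 1 with limma voom or all 48 libraries, 2 with late controls as a covariate, 3 with the CpG offset and 0 to 1 with a replicate left out. Under every alternative, MS in Tph2+/- mice, Tph2-/- against Tph2+/+ mice and the adjusted p gave 0. The causes of these changes were not tested.

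With library totals in place of TMM, the Htr1d sum at GE1 turned from -0.15 to 0.0065. That scaling moved the median of all loci to 0.15 at GE1 and to -0.11 for MS in Tph2+/+ mice, and the share of higher calls among all loci from 51.0% to 4.93% in Tph2+/+ mice, from 41.2% to 73.4% in Tph2+/- mice and from 57.1% to 22.25% in Tph2-/- mice.

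Whether the replicate numbers pair the mice is not stated. The correlations below cannot decide it, since within a group the replicate number rises with the sample number. Over 110 pairs of libraries with the same number the correlation of deviations ran from -0.16 to 0.26, with 11 over 0.1. The median was 0.013, against -0.0008 for pairs with different numbers, and 8 of 46 libraries correlated best with one of their own number. With the replicate block, 4 receptor loci passed for MS over the genotypes, 1 at GE2 and 1 summed gene over all comparisons, and the block moved no other count.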
